A study of Mus musculus with 26 samples.

Results

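NRF2, encoded by Nfe2l2, is a transcription factor that turns on genes for glutathione synthesis, thioredoxin recycling, quinone reduction and heme breakdown. KEAP1 binds NRF2 in unstressed cells and delivers it to a CUL3 ubiquitin ligase for degradation, and oxidants or electrophiles that modify KEAP1 let NRF2 accumulate and bind antioxidant response elements together with small MAF proteins. In lung cancers, mutations in this pair of genes are a known route to a constantly active antioxidant program.

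The mRNA levels of 10 NRF2 pathway genes were followed in murine lung cancer lines treated with alectinib, an inhibitor of the ALK tyrosine kinase. The genes were Nfe2l2, Keap1, Gclc, Gclm, Gsr, Gpx2, Txnrd1, Srxn1, Nqo1 and Hmox1, matched by symbol with capitals ignored among the 55391 gene rows of the count table. The lines EA1, EA2 and EA3 each carry an Eml4-Alk fusion made in the lungs of C57BL/6 mice with an adenovirus encoding Cas9 and guide RNAs. Each line was cultured with 100 nM alectinib or with its solvent, DMSO at 0.1%, and RNA was sequenced on days 1, 2, 3 and 5, with 1 library for each line and treatment on each day. The 4 days were used as replicates of a line and treatment, so that the tests measure the spread over days of 1 culture line and not over separate animals or clones, and other differences between the source mice cannot be told apart from line.

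Library totals of these 24 libraries ran from 5780062 to 11732401 counts. Levels are given as CPM, counts scaled to a common library size with edgeR's TMM factors. A CPM value is a share of the library, so that a smaller share of expressing cells and less RNA per cell cannot be told apart. Dusp6, a phosphatase transcribed in response to ERK signaling and used here as the check of drug action, fell in each line. Its mean over the 4 days was 186 CPM in DMSO and 37.9 CPM with alectinib for EA1, 328 and 10.3 CPM for EA2, and 255 and 27.9 CPM for EA3. Of 7 epithelial markers, keratins 8, 18 and 19 and Cdh1 were detected in each line. In DMSO, Cldn4 and Cldn7 averaged under 1 CPM in EA1 and EA2 and Epcam was at 1.35 CPM in EA1 and 0.494 CPM in EA2, against 61.1 to 132 CPM for these 3 genes in EA3. The summed level of the epithelial markers in EA2 was lower with alectinib without overlap, at 567 to 1169 CPM against 1811 to 2695 CPM in DMSO, with Krt18 at a mean of 491 against 1618 CPM and Krt8 at 49.1 against 253 CPM, whereas Cdh1 was higher with alectinib, at 190 against 65.3 CPM. The sums overlapped between treatments in EA1 (3245 to 5368 against 4633 to 9253 CPM) and EA3 (3104 to 7243 against 4788 to 6937 CPM). Mean Krt18 was lower with alectinib in these lines too, at 675.7 against 1854 CPM in EA1 and 778.5 against 1641 CPM in EA3. Mean Cdh1 was higher, at 665.3 against 546.7 CPM in EA1 and 1035 against 645.1 CPM in EA3. Of 6 markers of alveolar type 2 cells, 5 averaged under 1 CPM in all 3 lines, Sftpc among them, while Abca3 was at 40.3, 6.04 and 68.5 CPM in DMSO and at 56.8, 6.4 and 125 CPM with alectinib in EA1, EA2 and EA3. The summed level of 8 fibroblast markers was higher with alectinib in each line, at 126 to 478 CPM against 9.09 to 44.1 in EA1, 122 to 240 against 58.5 to 71.5 in EA2 and 84.8 to 274 against 10.2 to 20.2 in EA3. Of these 8 markers, 2 had no count in DMSO cultures of EA1, 1 in EA2 and 3 in EA3. Of 6 leukocyte markers only Cd68 reached a mean of 1 CPM in any line. It was at 3.845 CPM in DMSO and 4.05 CPM with alectinib in EA1, at 40.28 and 26.63 CPM in EA2 and at 37.95 and 11.75 CPM in EA3. The summed levels of the leukocyte markers overlapped between treatments in each line. The sum of 4 endothelial markers in EA2 was 1.97 to 5.71 CPM in DMSO and 0.177 to 1.01 CPM with alectinib, and in EA1 and EA3 it overlapped between treatments. The part of these 5 marker lists in the results on NRF2 genes was not tested.

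Gsr, which encodes glutathione reductase, fell with alectinib in EA1, EA2 and EA3, and it was the only one of the 10 genes to pass the test in each line. Gclm, the modifier subunit of glutamate-cysteine ligase, rose in EA1 and EA3. Gclc, the catalytic subunit of that enzyme, and Srxn1, sulfiredoxin, rose in EA1, where Nfe2l2 itself fell. Nqo1, a quinone reductase often used as a readout of NRF2, fell in EA3. Keap1, Txnrd1, Hmox1 and Gpx2 did not pass in any line.

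In numbers, edgeR's quasi-likelihood test called 3 of the 10 genes higher and 2 lower in EA1 at an adjusted p (Benjamini-Hochberg over 14264 genes) under 0.05, where 19.0% of all genes tested were higher and 14.6% were lower. In EA2, 0 were higher and 1 was lower, against 13.0% and 11.3% of all genes. The count of 3 at an unadjusted p under 0.05 in EA2, which added Nfe2l2, lower, and Hmox1, higher, stood against 36.0% of all genes by the same rule. DESeq2 also called none of them higher in EA2, whereas Hmox1 was called higher there without the filter on low counts, without day 5 and with EA2 fitted alone. In EA3, 1 was higher and 2 were lower, against 17.5% and 15.1%. For the members with counts, the median log2 fold change was 0.65 over 9 genes (EA1), -0.12 over 9 genes (EA2) and -0.13 over 10 genes (EA3), beside medians over all genes of 0.06, 0.0 and 0.07. All 10 genes passed the filter on low counts, Gpx2 through EA3 alone.

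**Figure D1:**
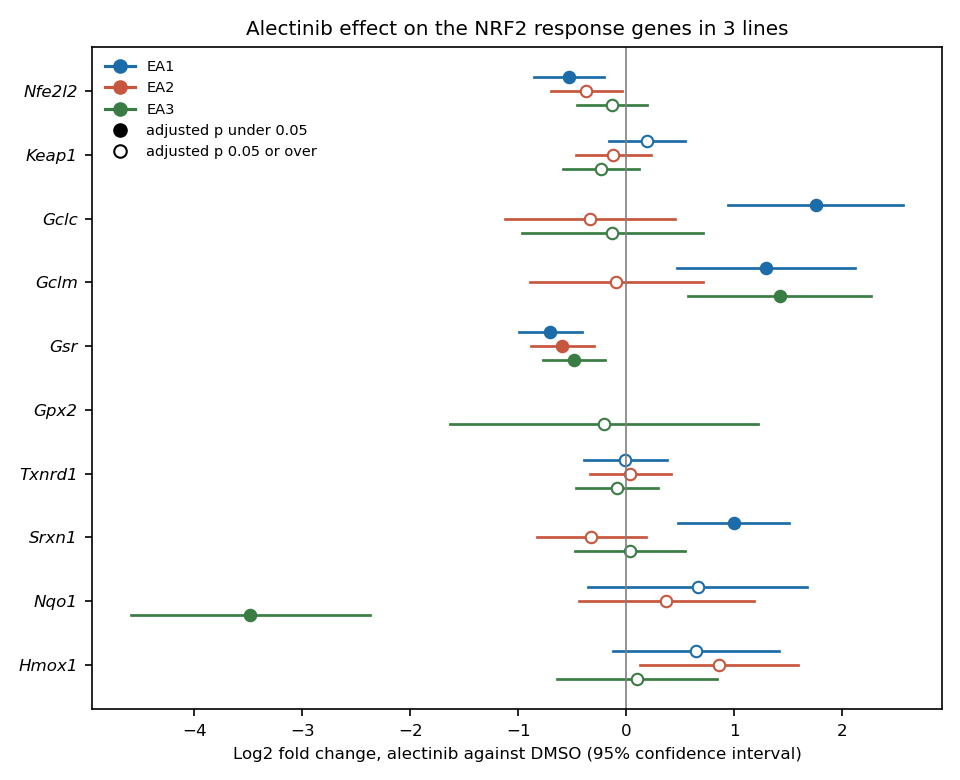
Log2 fold change of the 10 genes with alectinib against DMSO (x axis) in EA1, EA2 and EA3, with 95% confidence intervals from edgeR; filled points passed an adjusted p of 0.05, and Gpx2 is drawn for EA3 alone because it had no counts in the other lines. Gsr lies below 0 in all 3 lines, Gclm lies above 0 in EA1 and EA3, Gclc and Srxn1 lie above 0 in EA1, and Nqo1 in EA3 stands at -3.48.

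Nfe2l2 lies on chromosome 2 from 75675513 to 75704641 (mm10, minus strand). In EA1 it was at 254, 272, 451 and 304 CPM in DMSO on days 1, 2, 3 and 5, and at 217, 202, 224 and 219 CPM with alectinib. Every alectinib library was below every DMSO library. The log2 fold change was -0.53 (standard error 0.15, adjusted p = 0.0161 by edgeR), but without day 3, the day of the highest DMSO value, it was -0.41 with an adjusted p of 0.0969. In EA2 the DMSO levels were 125, 140, 186 and 156 CPM and the alectinib levels were 118, 121, 129 and 98.3 CPM. The levels were lower with alectinib on 4 of 4 days, the groups overlapped, and the log2 fold change of -0.37 did not pass (adjusted p = 0.0932 by edgeR), although it did with library size alone as the scaling (adjusted p = 0.0499). In EA3 the values were 157 to 234 CPM in DMSO and 160 to 197 CPM with alectinib, and the log2 fold change was -0.13 with a 95% interval of -0.46 to 0.19.

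Keap1 lies on chromosome 9 from 21229730 to 21239361 (minus strand). It shares 10.9% of its exon bases with Gm16754, which runs antisense to it, and whether counting kept strands apart is not given in the sources used here, so that a part of its counts is uncertain. Its log2 fold changes were 0.19 in EA1 (95% interval -0.16 to 0.54), -0.12 in EA2 (-0.47 to 0.23) and -0.23 in EA3 (-0.58 to 0.12). Its levels overlapped between treatments in each line, with a range over all 24 libraries that ran from 32.6 CPM in EA3 with alectinib to 79.2 CPM in EA1 with DMSO.

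Gclc and Gclm encode the catalytic and the modifier subunit of glutamate-cysteine ligase, the rate-limiting enzyme of glutathione synthesis. Gclc lies on chromosome 9 from 77754535 to 77794485 (plus strand). In EA1 it was at 217, 190, 207 and 154 CPM in DMSO on days 1, 2, 3 and 5, and at 373, 695, 843 and 761 CPM with alectinib. The groups lay far apart, and the log2 ratio grew from 0.78 on day 1 to 1.87, 2.03 and 2.30 on days 2, 3 and 5. The log2 fold change was 1.75 (standard error 0.38, adjusted p = 0.00346 by edgeR), and without day 3 it was 1.62 with an adjusted p of 0.0539. In EA2 the DMSO levels of 106, 102, 99.2 and 105 CPM stood above the alectinib levels of 93.8, 81.0, 80.5 and 72.6 CPM. These groups did not overlap either, but in the opposite direction and by little, and the log2 fold change of -0.34 did not pass the test (95% interval -1.12 to 0.45, adjusted p = 0.542 by edgeR). In EA3 the DMSO levels were steady at 158, 176, 157 and 147 CPM, whereas the alectinib levels were 65.0, 92.4, 169 and 482 CPM. Gclc in EA3 was thus below DMSO on days 1 and 2, near it on day 3 and above it on day 5, and the effect over the 4 days was -0.13 on the log2 scale with a standard error of 0.39.

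Gclm lies on chromosome 3 from 122245557 to 122270732 (plus strand), and it shares 3.88% of its exon bases with the pseudogene Gm6061 on its own strand and 4.71% with Gm17494 on the other strand. In EA1 its DMSO levels were 89.7, 69.2, 56.5 and 33.7 CPM on days 1, 2, 3 and 5, and its alectinib levels were 106, 161, 158 and 160 CPM. The groups did not overlap, and the widening of the difference from day 2 to day 5 came with falling DMSO values beside steady alectinib values. The log2 fold change was 1.29 (standard error 0.38, adjusted p = 0.0195 by edgeR). It did not pass without day 2 (1.24, adjusted p = 0.0894) or without day 3 (1.19, adjusted p = 0.129). In EA3 the DMSO levels were 124, 75.9, 45.7 and 34.3 CPM and the alectinib levels were 137, 165, 126 and 287 CPM. Again every alectinib library was above every DMSO library, and the log2 fold change was 1.42 (standard error 0.39, adjusted p = 0.0141 by edgeR). That call was lost without day 2 (1.5, adjusted p = 0.0689), day 3 (1.38, 0.0796) or day 5 (0.91, 0.0517), and with EA3 fitted alone (1.42, 0.0526). In EA2 Gclm was at 56.3 to 104 CPM in DMSO and at 62.5 to 83.8 CPM with alectinib, which overlapped, and its log2 fold change was -0.09 (95% interval -0.89 to 0.71).

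**Figure D2:**
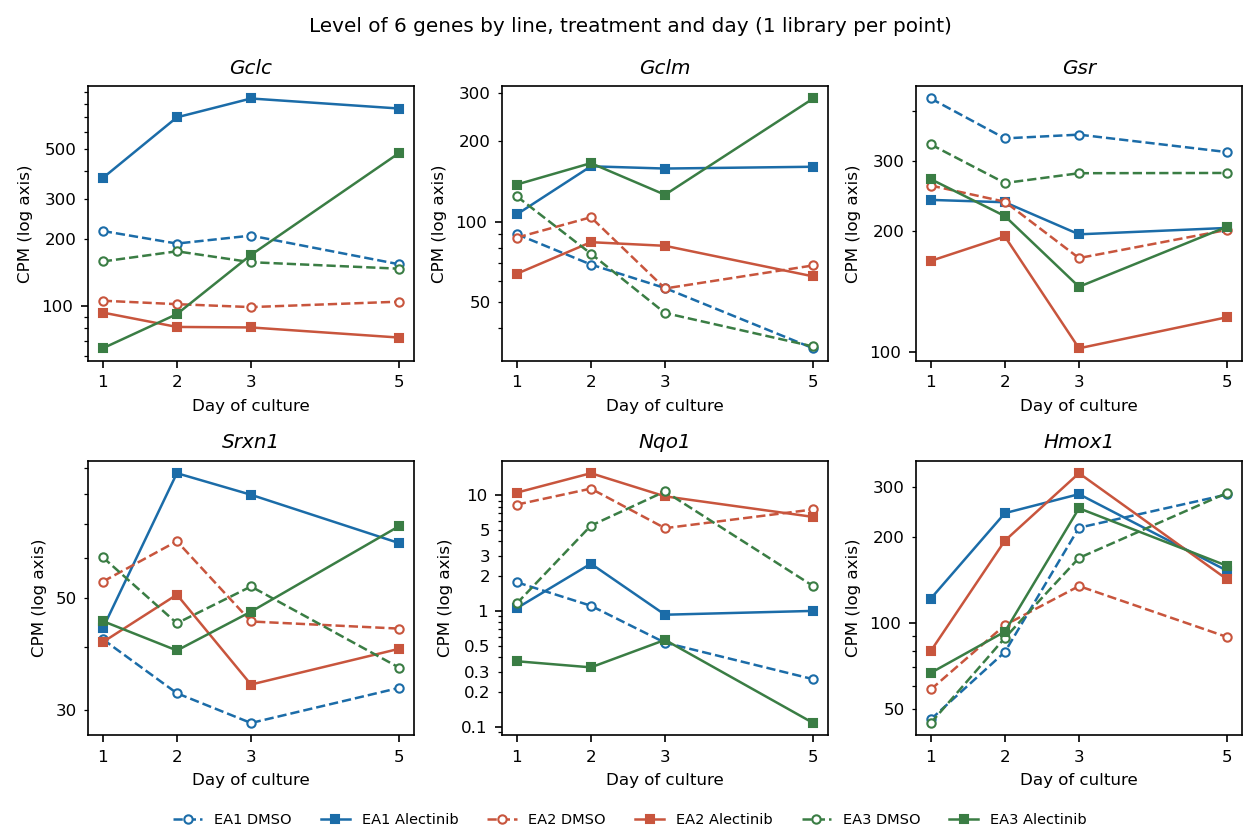
CPM on a log axis (y) against day of culture (x) for Gclc, Gclm, Gsr, Srxn1, Nqo1 and Hmox1, with 1 library per point, open circles and dashed lines for DMSO and filled squares and solid lines for alectinib. Gclc with alectinib in EA3 runs from 65.0 to 482 CPM between days 1 and 5, Gclm in DMSO falls to about 34 CPM in EA1 and EA3, and Hmox1 in DMSO climbs to over 280 CPM in the same lines.

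The promoter sequence of Gclm is shown because this gene rose in EA1 and EA3, beside those of Nfe2l2 and Txnrd1, which hold the same core motif and did not rise. NRF2 with a small MAF protein binds the antioxidant response element, whose core was searched here as TGACNNNGC on both strands. RefSeq promoters (GRCm38.p6, 250 bases before to 50 bases after the start) were at hand for 7 of the 10 genes. These genes have 9 promoters in the table, 3 of them of Txnrd1. The core was present in 4 of the 9, which were those of Nfe2l2, Srxn1 and Gclm and 1 of Txnrd1, and 12.4% of 32851 mouse promoters of this length hold it. Keap1, Nqo1, Gpx2 and the other two promoters of Txnrd1 had no match in this window. Sequences are given on the strand of the gene, with the matching letters in capitals; for Gclm and Txnrd1 they are the reverse complement of the core. The match of Srxn1 begins 28 bases after its start and is not shown.
Gclm, chr3:122245383-122245471, plus strand, match from 134 bases before the start: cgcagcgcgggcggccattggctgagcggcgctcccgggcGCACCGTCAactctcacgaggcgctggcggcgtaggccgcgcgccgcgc
Nfe2l2, chr2:75704855-75704913, minus strand, match from 240 bases before the start: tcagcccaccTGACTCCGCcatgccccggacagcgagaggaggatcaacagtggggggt
Txnrd1, chr10:82859074-82859162, plus strand, match from 92 bases before an internal start: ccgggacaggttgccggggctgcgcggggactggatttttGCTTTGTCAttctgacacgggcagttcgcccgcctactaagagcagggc
A match of these letters is a description of the sequence and does not show that NRF2 binds there.

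Glutathione reductase, encoded by Gsr on chromosome 8 from 33652523 to 33698163 (plus strand), regenerates reduced glutathione with NADPH. In EA1 its DMSO levels were 429, 341, 348 and 315 CPM on days 1, 2, 3 and 5, and its alectinib levels were 240, 236, 197 and 204 CPM. Every alectinib library was lower than every DMSO library, and the log2 fold change was -0.70 (standard error 0.14, adjusted p = 0.00167 by edgeR). In EA2 the levels were 260, 237, 172 and 202 CPM in DMSO and 169, 194, 102 and 122 CPM with alectinib. The groups overlapped, but within each day the alectinib library was lower, and the log2 fold change was -0.60 (standard error 0.14, adjusted p = 0.00594 by edgeR). In EA3 the levels were 329, 264, 279 and 280 CPM in DMSO and 270, 218, 146 and 205 CPM with alectinib. Again all 4 days were lower with alectinib, and the log2 fold change was -0.48 (standard error 0.14, adjusted p = 0.0148 by edgeR). The EA3 call was the least secure, as it was lost without the line and day block (-0.46, adjusted p = 0.0802), without day 3 (-0.36, 0.0806), without day 5 (-0.50, 0.0607) and with EA3 fitted alone (-0.49, 0.0810). The fall of Gsr in EA1 and EA2 passed in each of the 11 alternatives computed for it.

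Gpx2 encodes a glutathione peroxidase best known from the epithelium of the gut, and lies on chromosome 12 from 76792333 to 76795554 (minus strand). It had no count in any of the 16 libraries of EA1 and EA2, where 3 counts would stand for at most 0.519 CPM, so that a level below this would not have been detected. In EA3 it was at 5.38, 6.53, 0.660 and 2.31 CPM in DMSO and at 8.22, 6.76, 0.941 and 0.325 CPM with alectinib, from between 3 and 89 counts. Both treatments were highest on days 1 and 2 and the ranges overlapped. The log2 fold change was -0.21 with a 95% interval of -1.64 to 1.22.

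Thioredoxin reductase, encoded by Txnrd1 on chromosome 10 from 82833951 to 82897712 (plus strand), did not pass the test in any line, and the limits on its change were narrow. In the order EA1, EA2 and EA3, its log2 fold changes were -0.01, 0.04 and -0.09, and the 95% intervals ran from -0.39 to 0.37, from -0.34 to 0.42 and from -0.47 to 0.30. The levels were between 213 and 387 CPM in EA1, between 357 and 550 CPM in EA2 and between 230 and 381 CPM in EA3 over both treatments.

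Sulfiredoxin, encoded by Srxn1 on chromosome 2 from 152105516 to 152111376 (plus strand), repairs overoxidized peroxiredoxins. In EA1 it was at 41.4, 32.4, 28.3 and 33.2 CPM in DMSO and at 43.5, 88.1, 79.8 and 64.1 CPM with alectinib on days 1, 2, 3 and 5. On day 1 the 2 libraries were close, on the later days the alectinib libraries were well above, and the groups did not overlap. The log2 fold change was 0.99 (standard error 0.24, adjusted p = 0.00654 by edgeR), and it did not pass without day 2 (0.76, adjusted p = 0.0778) or day 3 (0.79, adjusted p = 0.0895). In EA2 Srxn1 was at 43.5 to 64.7 CPM in DMSO and at 33.7 to 50.7 CPM with alectinib. It was lower on 4 of 4 days with overlapping ranges, and the log2 fold change of -0.32 did not pass (95% interval -0.83 to 0.18). In EA3 the log2 fold change was 0.03 (-0.48 to 0.54), with 3 days lower and day 5 higher.

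Nqo1, on chromosome 8 from 107388225 to 107403206 (minus strand), encodes a quinone reductase. Its levels were low throughout. In EA3 it was at 1.17, 5.48, 10.8 and 1.65 CPM in DMSO on days 1, 2, 3 and 5, from 13, 47, 82 and 10 counts, and at 0.370, 0.327, 0.565 and 0.108 CPM with alectinib, from 4, 3, 6 and 1 counts. The groups did not overlap, and the log2 fold change was -3.48 (standard error 0.51, adjusted p = 0.000291 by edgeR). The call held in each of the 11 alternatives computed for it, although the alectinib values rest on so few counts that the size of the fall is imprecise (95% interval -4.59 to -2.38). In EA1 the levels were 1.78, 1.11, 0.534 and 0.259 CPM in DMSO and 1.06, 2.57, 0.932 and 1.01 CPM with alectinib, and the log2 fold change of 0.66 had a 95% interval of -0.35 to 1.67. In EA2 they were 5.21 to 11.4 CPM in DMSO and 6.52 to 15.6 CPM with alectinib, which overlapped, with a log2 fold change of 0.37 (-0.44 to 1.18).

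Hmox1, on chromosome 8 from 75093621 to 75100589 (plus strand), encodes heme oxygenase 1, which breaks down heme and responds to NRF2 and to loss of the repressor BACH1. In EA1 it was at 45.9, 79.2, 216 and 283 CPM in DMSO and at 122, 243, 284 and 153 CPM with alectinib on days 1, 2, 3 and 5. Alectinib was above DMSO on the first 3 of these days and below it on day 5. The log2 fold change of 0.65 did not pass (adjusted p = 0.175 by edgeR), but it did without day 5 (1.10, adjusted p = 0.0113) and with no filter on low counts (0.58, 0.0306). In EA2 the levels were 58.5, 98.4, 135 and 89.4 CPM in DMSO and 79.8, 195, 336 and 142 CPM with alectinib. Alectinib was higher on 4 of 4 days with overlapping ranges, and the log2 fold change of 0.86 missed the threshold (adjusted p = 0.0848 by edgeR). It passed without day 5 (0.92, adjusted p = 0.0288), with EA2 fitted alone (0.84, 0.00600) and with no filter on low counts (0.86, 0.000218). In EA3 the DMSO levels were 44.6, 88.8, 169 and 287 CPM and the alectinib levels were 66.9, 93.3, 253 and 159 CPM, with 3 days higher, day 5 lower and a log2 fold change of 0.10 (95% interval -0.64 to 0.84).

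Whether alectinib acted differently in the 3 lines was tested directly, with an edgeR quasi-likelihood test of 2 degrees of freedom. It called 2 of the 10 genes, against 6.84% of all genes tested. They were Nqo1 (adjusted p = 0.00468) and Gclc (adjusted p = 0.0438). For Nqo1, the log2 effect of EA3 minus that of EA1 was -4.14 (95% interval -5.64 to -2.65) and EA3 minus EA2 was -3.85 (-5.22 to -2.48), whereas EA2 minus EA1 was -0.29 (-1.56 to 0.98). Tested as single pairs of lines, the first 2 of these differences passed (adjusted p = 0.01001 and 0.00726 by edgeR, against 1.79% and 2.86% of all genes called). For Gclc, EA2 minus EA1 was -2.09 (-3.21 to -0.96) and passed when this pair of lines was tested alone (adjusted p = 0.0326 by edgeR, against 6.44% of all genes called). EA3 minus EA1 was -1.88 (-3.04 to -0.72) and did not pass after adjustment (adjusted p = 0.105 by edgeR), and EA3 minus EA2 was 0.21 (-0.94 to 1.35). Both calls were lost without day 3 and when the libraries labelled EA3 day 7 were added, and Gclc was also lost without day 2. Srxn1 (adjusted p = 0.0582) and Gclm (0.139) missed the threshold of this edgeR test and passed it in DESeq2's likelihood ratio test, which called 13.7% of all genes, and in edgeR without the filter on low counts, where 8.08% were called. Srxn1 also passed with library size alone, without the block and without day 1. Tested for EA2 minus EA1 alone, Srxn1 passed, with a difference of -1.32 (-2.04 to -0.60, adjusted p = 0.0349 by edgeR). For Gsr, the 3 lines' effects lay within 0.22 log2 units of each other, with 95% intervals of the differences of -0.30 to 0.52 for EA2 minus EA1, -0.19 to 0.63 for EA3 minus EA1 and -0.30 to 0.52 for EA3 minus EA2.

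The course over the days was tested as the shift in the alectinib effect with each doubling of days. edgeR's quasi-likelihood test called 0 of the 10 genes in any line, beside 0.021%, 0.0% and 0.0491% of all genes for EA1, EA2 and EA3, so that hardly any gene was called by this test. In EA3 this result depended on the settings, as edgeR did call members without the filter on low counts and without the block. At an unadjusted p under 0.05 EA1 had 5 of the 10, EA2 had 0 and EA3 had 3, against 11.5%, 6.03% and 13.2% of all genes. DESeq2's Wald test called 2 in EA1, which were Gclm and Hmox1, 0 in EA2, and 2 in EA3, which were Gclc and Gclm, against 1.53%, 0.372% and 2.12% of all genes. In EA3 the log2 effect per doubling of days was 1.28 for Gclc (95% interval 0.83 to 1.74, adjusted p = 0.0590 by edgeR) and 1.19 for Gclm (0.75 to 1.63, adjusted p = 0.0603 by edgeR). In EA1 it was 0.65 for Gclc (0.21 to 1.09), 0.84 for Gclm (0.40 to 1.27) and -1.02 for Hmox1 (-1.65 to -0.39).

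In DMSO cultures themselves some of these genes moved with days. Hmox1 rose by 1.22 on the log2 scale per doubling of days in EA1 (adjusted p = 0.0464 by edgeR) and by 1.18 in EA3 (adjusted p = 0.0258 by edgeR). Gclm fell by 0.83 on the log2 scale per doubling in EA3 (adjusted p = 0.00777 by edgeR), while in EA1 its change of -0.58 did not pass (adjusted p = 0.0675 by edgeR). These were 1 of 10 genes in EA1, against 3.64% of all genes, and 2 of 10 in EA3, against 11.3%. In EA2, 0 of 10 and 0.0% of all genes were called, with 0 of the 10 at an unadjusted p under 0.05, against 3.08% of all genes, and 0 by DESeq2. The call of Hmox1 in EA1 was lost without day 1, 2 or 5, with all 26 libraries and with library size alone as the scaling, under which Gclm was called in EA1 in its place. Gclm in EA1 also passed without day 3, without the filter on low counts, by DESeq2 and with EA1 fitted alone. In EA3, the calls of Hmox1 and Gclm were both lost without day 1 or 5, and that of Hmox1 also without day 2 or with all 26 libraries. The ratio of alectinib to DMSO for Hmox1 and Gclm therefore compares libraries whose DMSO level itself differed between days.

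The lines also differed at baseline, in the 12 DMSO libraries. Between EA2 and EA1, 6 of the 9 genes tested differed, against 40.8% of all genes. Nqo1 was higher in EA2 by 3.16 on the log2 scale (95% interval 1.69 to 4.63, adjusted p = 0.00289 by edgeR), and Txnrd1 (0.61) and Srxn1 (0.57) were higher too. Nfe2l2 (-1.10), Gclc (-0.93) and Gsr (-0.76) were lower in EA2. The calls of Txnrd1 and Srxn1 were lost without day 2 and without the block, and that of Txnrd1 also without day 1 or 5. Nfe2l2 mRNA and Nqo1 mRNA thus differed in opposite directions between this pair of lines. Between EA3 and EA1, 3 of the 9 differed, against 32.6% of all genes, with Nqo1 (2.18) and Srxn1 (0.51) higher in EA3 and Nfe2l2 (-0.68) lower. None of these 3 passed without day 2, Nfe2l2 alone of them passed without day 3 or day 5, and Srxn1 was also lost without day 1, without the block and without the filter on low counts. Between EA3 and EA2, 2 of the 9 differed, against 36.5%, with Gclc (0.67) and Gsr (0.45) higher in EA3. Neither passed without day 2, Gclc alone passed without day 1 or day 5, and 5 genes, Gsr not among them, passed without day 3. The call of Gsr was also lost with library size alone, without the filter on low counts and without the block.

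Divided by the exon length of each gene, the mean DMSO level was highest for Gsr in each line, at 130 ± 17.8 CPM per 1000 exon bases in EA1, 79.0 ± 14.1 in EA2 and 105 ± 10.3 in EA3 (SD, n = 4 days). Its range overlapped others, however. In EA2 it was 62.3 to 94.5, against 55.5 to 71.7 for Txnrd1 and 33.4 to 77.1 for Hmox1. In EA1 it was 114 to 156, against 66.9 to 119 for Nfe2l2. Hmox1, Nfe2l2, Txnrd1 and Gclc followed in an order that changed with the line. Hmox1 was the most spread of these, with 89.1 ± 64.1 CPM per 1000 bases in EA1, and in EA1 and EA3 its range covered that of Gsr. Nfe2l2 at 84.3 and Gclc at 51.0 CPM per 1000 bases did not overlap in EA1, nor did they at 40 and 27.4 in EA2, but they overlapped in EA3 at 51.7 and 42.4. Srxn1, Keap1 and Gclm formed a lower tier with means of 9.90 to 18.3 CPM per 1000 bases, and neighbours among them overlapped in every line. Nqo1 was below that tier, at 0.593 ± 0.434 in EA1, 5.24 ± 1.66 in EA2 and 3.08 ± 2.88 in EA3, where its range touched that of Gclm. Gpx2 was last, at 1.15 ± 0.841 in EA3 and with no counts in EA1 and EA2.

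**Figure D3:**
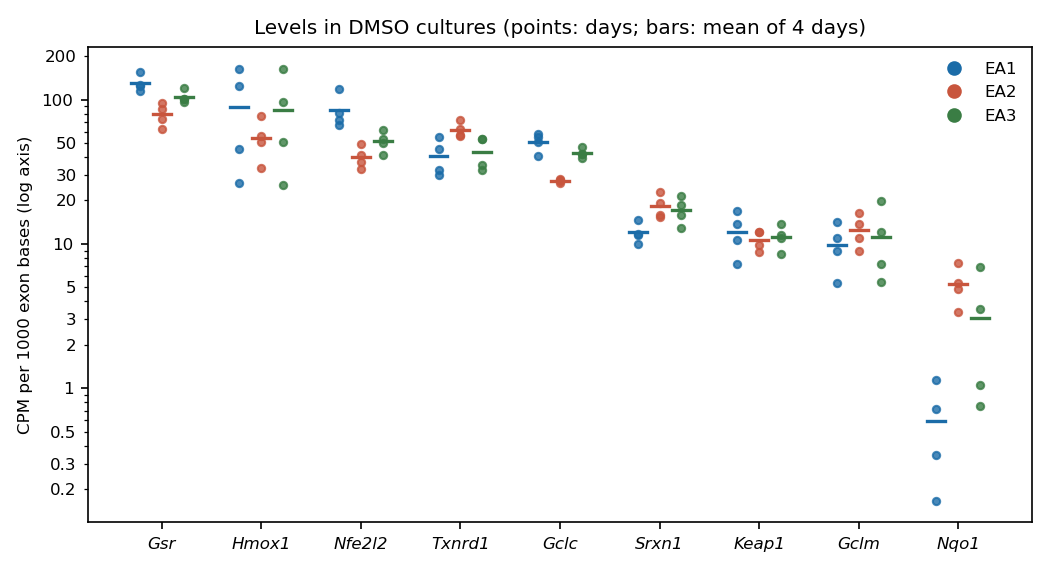
CPM per 1000 exon bases on a log axis (y) for 9 genes (x) in DMSO cultures, with 1 point per day and a bar at the mean of the 4 days for each line; Gpx2 is left out because it had no counts in EA1 and EA2. Gsr has the highest mean in each line and Nqo1 the lowest, with EA1 below EA2 and EA3 for Nqo1.

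To set the 10 genes in their pathway, 54 other genes were read that are commonly counted as NRF2 regulators or targets, of which 52 were tested. In EA1, 25 were higher and 5 lower with alectinib (edgeR, adjusted p under 0.05), in EA2 8 were higher and 3 lower, and in EA3 5 were higher and 7 lower, against the same backgrounds as above. The 30 calls of EA1 became 17 without day 3, and the 12 of EA3 became 7 without day 2. The 11 calls of EA2 became 7 without day 2 or 3, without the block or with all 26 libraries, 17 without the filter on low counts and 19 with EA2 fitted alone. The median log2 fold change of the tested genes was 0.54 for EA1, beside 0.08 for EA2 and 0.07 for EA3. By role, 9 of 13 enzymes that use glutathione were higher in EA1 (median 2.55), and in drug metabolism and export 7 of 12 genes were higher and 1 lower (median 1.36), against 19.0% higher and 14.6% lower over all genes. Of these 9 enzymes, 4 were close to the limit of detection in DMSO cultures of EA1, with means of 0.441 CPM for Gsta1, 0.235 CPM for Gsta2, 0 for Gsta3 and 0.280 CPM for Gstm4 from at most 9 counts, so that the sizes of their changes, and the median, are imprecise. Among the raised genes of drug metabolism and export, Cbr1, Cbr3 and Ugt1a6a averaged 0.974, 0.33 and 1.07 CPM in the same cultures, from at most 15 counts. Abcc3 averaged 1.97 CPM there, from 3 to 33 counts, so that the sizes of these changes are imprecise too. The remaining roles in EA1 moved less or the other way. Glutathione synthesis and cystine uptake had 1 of 3 higher and 2 lower (median -1.18), and regulators had 2 of 9 higher and 2 lower (-0.03). Thioredoxin had 1 of 3 higher (-0.10), NADPH supply 3 of 6 (0.43), and quinone, heme and iron 2 of 6 (0.55). The list and its roles were chosen with earlier results of these data known, so that these counts are a description. In glutathione use EA2 had 2 higher and 1 lower (median 0.25) and EA3 had 3 higher and 2 lower (0.74). In drug metabolism and export EA2 had 1 higher (0.18) and EA3 had 1 higher and 1 lower (0.31).

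Among the named genes of EA1, the glutathione transferase Gstm2 rose from 3.46 ± 1.94 to 43.6 ± 20.5 CPM (SD, n = 4 days), a log2 fold change of 3.65. Aldh3a1, an aldehyde dehydrogenase, rose from 39.3 ± 24.9 to 366 ± 147 CPM (3.42), and Abcc3, an exporter of glutathione and glucuronide conjugates, rose from 1.97 ± 1.39 to 13.4 ± 4.48 CPM (2.86). The DMSO libraries of EA1 held 3 to 33 counts of Abcc3, against a mean of 118 CPM in DMSO in EA3, so that the size of its rise in EA1 is imprecise. The transferases Gsta4 (2.78) and Gstm1 (2.67) rose as well. Glutathione transferases of a class are close in sequence, so that reads may be split or lost between them and their counts are uncertain. The effect differed between lines for Gsta4 (adjusted p = 0.0205), Gstm2 (0.0265), Abcc3 (0.0267) and Aldh3a1 (0.0374) by the edgeR test of 2 degrees of freedom, but for Gstm1 it did not pass (0.158).

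Slc7a11, the cystine carrier that feeds glutathione synthesis, moved the other way and fell in all 3 lines. In EA1 it was at 108 ± 59.3 CPM in DMSO and 17.9 ± 9.73 CPM with alectinib (SD, n = 4 days). The same pair of means was 82.6 ± 51.7 and 33.1 ± 15.8 CPM for EA2, and 282 ± 248 and 19.6 ± 9.26 CPM for EA3. The log2 fold changes were -2.62, -1.22 and -3.65, and they differed between lines (adjusted p = 0.00814 by edgeR). In EA1 the fall of Slc7a11 stood beside the rise of Gclc and Gclm, whose enzyme uses the cysteine it supplies. Its partner chain Slc3a2 also fell in EA1 (-1.18) and EA3 (-1.13), whereas its log2 fold change of 0.47 in EA2 did not pass, and these effects differed between lines too (adjusted p = 0.0113 by edgeR).

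Outside cystine uptake, Bach1, a repressor of NRF2 targets such as Hmox1, rose in all 3 lines by 0.62, 0.63 and 0.57 on the log2 scale. The epoxide hydrolase Ephx1 (1.47, 1.67 and 0.99) and the glutathione peroxidase Gpx1 (1.07, 0.73 and 0.74) also rose in each. In EA3, however, Bach1 and Ephx1 were not higher on day 3 (log2 ratios of -0.03 and -0.30) and their groups overlapped. The alectinib level of Ephx1 there was 94.9 ± 99.7 CPM with a median of 52.4 CPM, and its groups overlapped in EA1 too. Gpx1 was higher on 4 of 4 days in each line, with overlapping groups in EA2 and EA3. Mgst1, a microsomal glutathione transferase, rose by 2.55 in EA1 and 1.89 in EA2, and the ferritin light chain Ftl1 rose by 0.67 and 0.91 in the same lines, whereas in EA3 their log2 fold changes of 0.46 and 0.02 did not pass. Gstp1 fell in EA2 (-0.90). In EA3, Gstm2 rose by 1.96, while Gstp1 (-0.96) and Mgst2 (-1.13) fell. The effect on Mgst1 (adjusted p = 0.0367) and on Gstp1 (0.0355) differed between lines by the edgeR test, with Gstp1 at -0.02 in EA1, whereas for Ftl1 (0.109) and Mgst2 (0.123) a difference between lines did not pass.

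**Figure D4:**
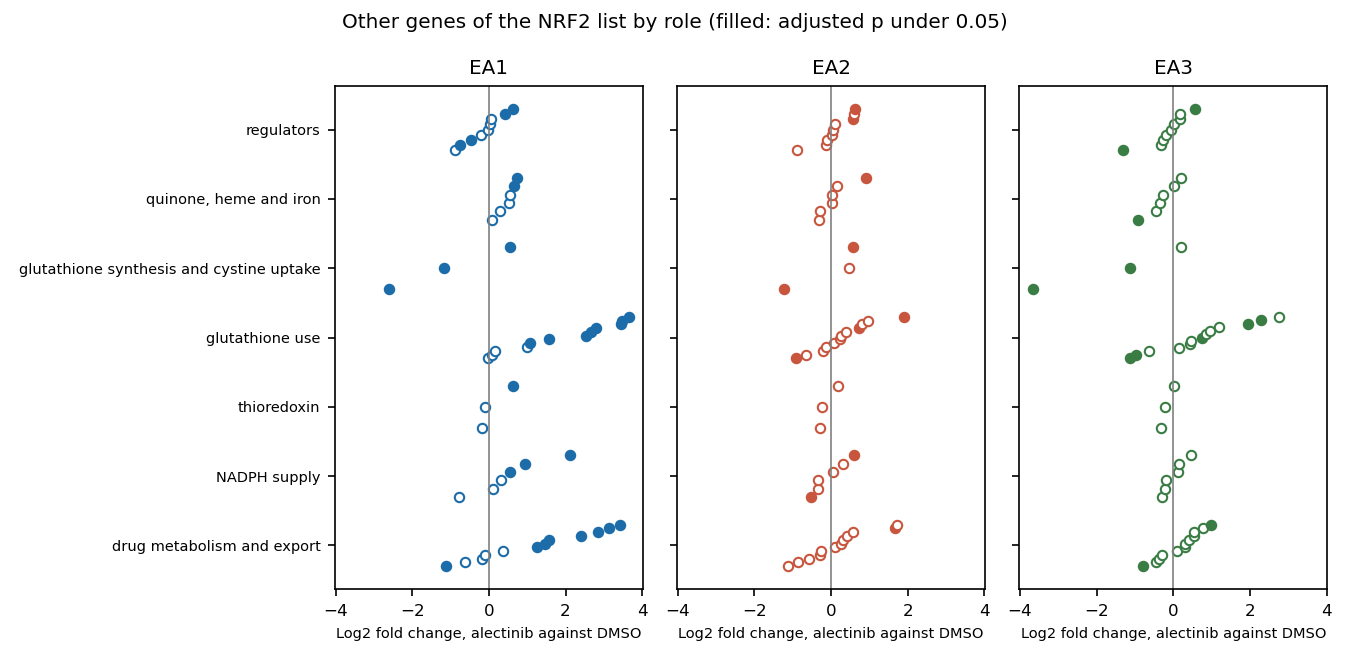
Log2 fold change with alectinib against DMSO (x axis) of the other NRF2 list genes that were tested, 1 point per gene, in rows by role and 1 panel per line; filled points passed an adjusted p of 0.05, and Gsta3 is drawn for EA3 alone because it had no counts in DMSO in EA1 and at most 2 counts in a library of EA2. The filled points on the right in EA1 lie mainly in glutathione use and in drug metabolism and export, and the point furthest left in each panel's row of cystine uptake is Slc7a11.

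As a description, the genes whose log2 CPM was most like that of a member were read across the 24 libraries, which come from only 3 lines and so are not independent points. For Srxn1 the first 2 were the glutathione transferases Gsta4 (Pearson r = 0.768) and Gsta1 (0.756). For Gclc they were Alpl (0.921), Angpt1 (0.917) and Tmem178 (0.911), for Gclm Pofut1 (0.901), and for Nfe2l2 Jag1 (0.948), Stk40 (0.928) and Smad3 (0.916). No other gene of the 10 was among the 3 most like genes of any member.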

How the data were processed

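The study's murine EML4-ALK lines were sequenced as stranded poly(A) libraries with paired reads. The deposited values are raw counts per gene, which the authors obtained from STAR together with its alignment to mm10. Adapter removal (bbduk) and a FastQC inspection came before that step. The annotation and strand column are not given in the sources used here. The table also held 24 rows named by date numbers, which took at most 0.201% of a library and were left out. Each column was mapped by its label.

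The counts were fitted with edgeR 4.0.16 in R 4.3.3 (TMM, filterByExpr, robust quasi-likelihood test) and summarised in Python 3.11.15. One model held the 24 libraries of days 1 to 5, with 12 line and day blocks and an alectinib effect per line, with Benjamini-Hochberg adjustment and a threshold of 0.05. DMSO and alectinib libraries of a line share the day of culture, and their deviations from group means correlated between -0.300 and 0.549 over genes. DMSO lines were compared in 12 libraries with day as a block, over 12886 genes. Daily ratios are differences of log2 CPM with a prior count of 2. The 2 libraries labelled EA3 day 7 were kept out because they resembled EA2. DESeq2 1.42.0, other scalings, no filter, no block, each line alone, all 26 libraries and each day left out were alternatives. The code was tested on simulated counts. Gene models are GENCODE's for mm10.

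The members, the wider list and its roles, and the tests were chosen with earlier results of these data known. Named genes of the wider list are, per line, the 5 with the largest log2 fold change among calls with the same sign on each of the 4 days and a mean log2 CPM of at least 3, and those called in 1 direction in all 3 lines. That mean was taken over the 24 libraries of all lines, so that a gene could reach it through 1 line. A genotype difference between the source mice of the lines is not reported here.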

Additional observations from a re-analysis of the deposited data

Results flagged for a closer look

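Of 56 groups of 4 libraries tested for 1 library far from the rest, 3 exceeded Dixon's critical value for 4 values, where chance flags about 1 in 20 groups. In EA3 with alectinib, Keap1 on day 3 lay below the other days with a gap of 0.934 of the range (32.6 CPM against 48.3 to 49.4). In EA1 with alectinib, Nqo1 on day 2 lay above the others with a gap of 0.921 of the range (2.57 CPM against 0.932 to 1.06), from 21 counts. In EA1 with alectinib, Gclm on day 1 lay below the others with a gap of 0.944 of the range (106 CPM against 158 to 161).

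A difference between lines in the alectinib effect was found for Gclc (adjusted p = 0.04376) and for Nqo1 (adjusted p = 0.00468) by edgeR's test of 2 degrees of freedom.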

How the results depend on the processing

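Of 308 alternative values of the members' alectinib effects, 268 kept their sign and side of the threshold, 14 lost and 6 gained a call, 20 of uncalled effects changed sign and 0 of called effects reversed. Of 99 alternatives of the 9 called effects, 85 kept the call. Of the called effects, Gsr in EA1 and EA2 and Nqo1 in EA3 kept it in each alternative. With library size alone, the median of all genes moved by 0.12 on the log2 scale in EA3, and 64.7% of its calls were higher against 53.6%, with 3 members called under both.

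Counts moved as follows. In EA1, the 5 members called were 1 to 6 and the 30 other list genes 17 to 24 when single days were left out. The 0 members with an effect that changed with days became 2 with DESeq2, and the 1 that changed with days in DMSO became 2 with no filter, with DESeq2 or with the line alone, 0 with all 26 libraries and 0 to 2 with days left out. In EA2, the 1 member called became 2 with library size alone, with no filter or with the line alone, and 1 to 2 with days left out. The 11 other list genes became 17 with no filter, 7 with no replicate block, 7 with all 26 libraries, 19 with the line alone and 7 to 10 with days left out. In EA3, the 3 members called became 1 with the line alone and 1 to 3 with days left out, the 12 other list genes 7 to 11, and the 0 members with an effect that changed with days became 2 with no filter, 2 with DESeq2, 1 with no replicate block and 0 to 1 with days left out. The 2 that changed with days in DMSO became 1 with all 26 libraries and 0 to 2 with days left out. Between lines, 2 members became 4 with no filter, 4 with DESeq2, 0 with all 26 libraries and 0 to 3 with days left out. In DMSO, the 3 that differed between EA3 and EA1 became 0 to 2 with days left out, and the 2 between EA3 and EA2 became 4 with no filter, 1 with no replicate block and 0 to 5 with days left out. Among the alectinib effects of the 10 members, dropping the replicate block ended the call of Gsr in EA3 alone, and it took the other list genes called in EA1 from 30 to 25. The cause of these changes was not tested. Low counts limit Nqo1, Gpx2 and, in EA1, Gsta1, Gsta2, Gsta3, Gstm4, Cbr1, Cbr3, Ugt1a6a and Abcc3, and 1 library per line, treatment and day limits every comparison.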

Other observations

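The 2 libraries labelled EA3 day 7 were not used for the values above, since their log2 CPM over genes correlated with the EA2 libraries at 0.943 to 0.977 in DMSO and 0.960 to 0.988 with alectinib, and with the EA3 libraries at 0.858 to 0.890 and 0.852 to 0.871. Gpx2, present in EA3 on days 1 to 5, had 0 counts in both. Nqo1 was at 3.90 CPM in DMSO and 7.45 CPM with alectinib, Gclc at 93.3 and 61.1 CPM, Gclm at 41.4 and 55.3 CPM, Gsr at 81.0 and 85.0 CPM and Hmox1 at 163 and 215 CPM. The labels of these 2 libraries went against their expression, and which line they came from cannot be told from the labels.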
